A study of Caenorhabditis elegans with 4 samples.

Results

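A group of 80 protein-coding genes had a positive expression ratio between cde-1 mutant and wildtype C. elegans gonads on every array of the series, in aged and in young adults alike. The genes were chosen by their measured ratios, so those ratios are described here and not tested. Of 2147 coding genes with a named probe and a ratio on all 4 arrays, 94 had a deposited log10 ratio above 0.1 on all 4, which is a ratio above 1.26-fold. From these, 6 genes above 0.602 (4-fold) on all 4 arrays were set aside as a separate group, as were 8 genes of the lido and spig families by their symbols, which left the 80. Every one of the 80 was represented by 1 probe, so no gene had a second probe on the same array to repeat its value.

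RNA of 250 dissected gonads made up each sample. Aged adult mutants (cde-1, allele tm1021) were compared with aged adult wildtype worms (N2, the standard laboratory strain), and young adult mutants with young adult wildtype worms. The labels give no age in days, and no allele or treatment beyond tm1021. Each stage had 1 RNA sample of each genotype, hybridised on 2 arrays of 2 colours with the dyes exchanged. The array that carried the mutant cDNA in Cy5 is called the Cy5 array below, the one that carried it in Cy3 the Cy3 array, and values are given in that order. The arrays of a stage therefore repeat the labelling and not the RNA, and n = 2 stages throughout.

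CDE-1 is a terminal uridylyltransferase, an enzyme that adds uridines to the ends of small RNAs. In the C. elegans germ line its best known substrates are the small RNAs bound by the Argonaute protein CSR-1, which pair with transcripts of germline-expressed genes. Ratios from whole gonads cannot tell more cells of a type apart from more RNA per cell. None of the 37 tissue marker genes listed for germ line, sperm, somatic gonad, intestine, muscle, hypodermis and neurons had a named probe, nor did cde-1, so neither the tissue nor the mutation was checked on these arrays.

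Whether the deposited ratios are mutant over wildtype is not stated in the labels, and that direction is called likely on the following basis. On both Cy5 arrays all 22562 values were written in scientific notation. On the Cy3 arrays this held only for the zeros, 9858 in aged and 11787 in young adults, so their ratios had been handled in another way, possibly by turning the sign. If the sign of all arrays were the other way round, every ratio below would be a low one. If no array had been turned, ratios that are positive on all 4 arrays would be a dye effect, and with the Cy3 arrays turned 41 genes passed the rule, 0 of them among the 80. As deposited, the 2 arrays of a stage had a Pearson correlation over 2147 coding genes of 0.43 in aged and 0.65 in young adults. Between stages, the correlation was -0.043 for the Cy5 arrays and -0.031 for the Cy3 arrays. Whether any array had been turned was not tested. The log base was taken as that of the Agilent program, with no scanner signal at hand to check it. Had the deposit been in log2, sizes below would shrink by a factor of 3.32. The sizes are given as log2 ratios, on which scale the lower limit is 0.33 and the upper limit 2.

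**Figure D1:**
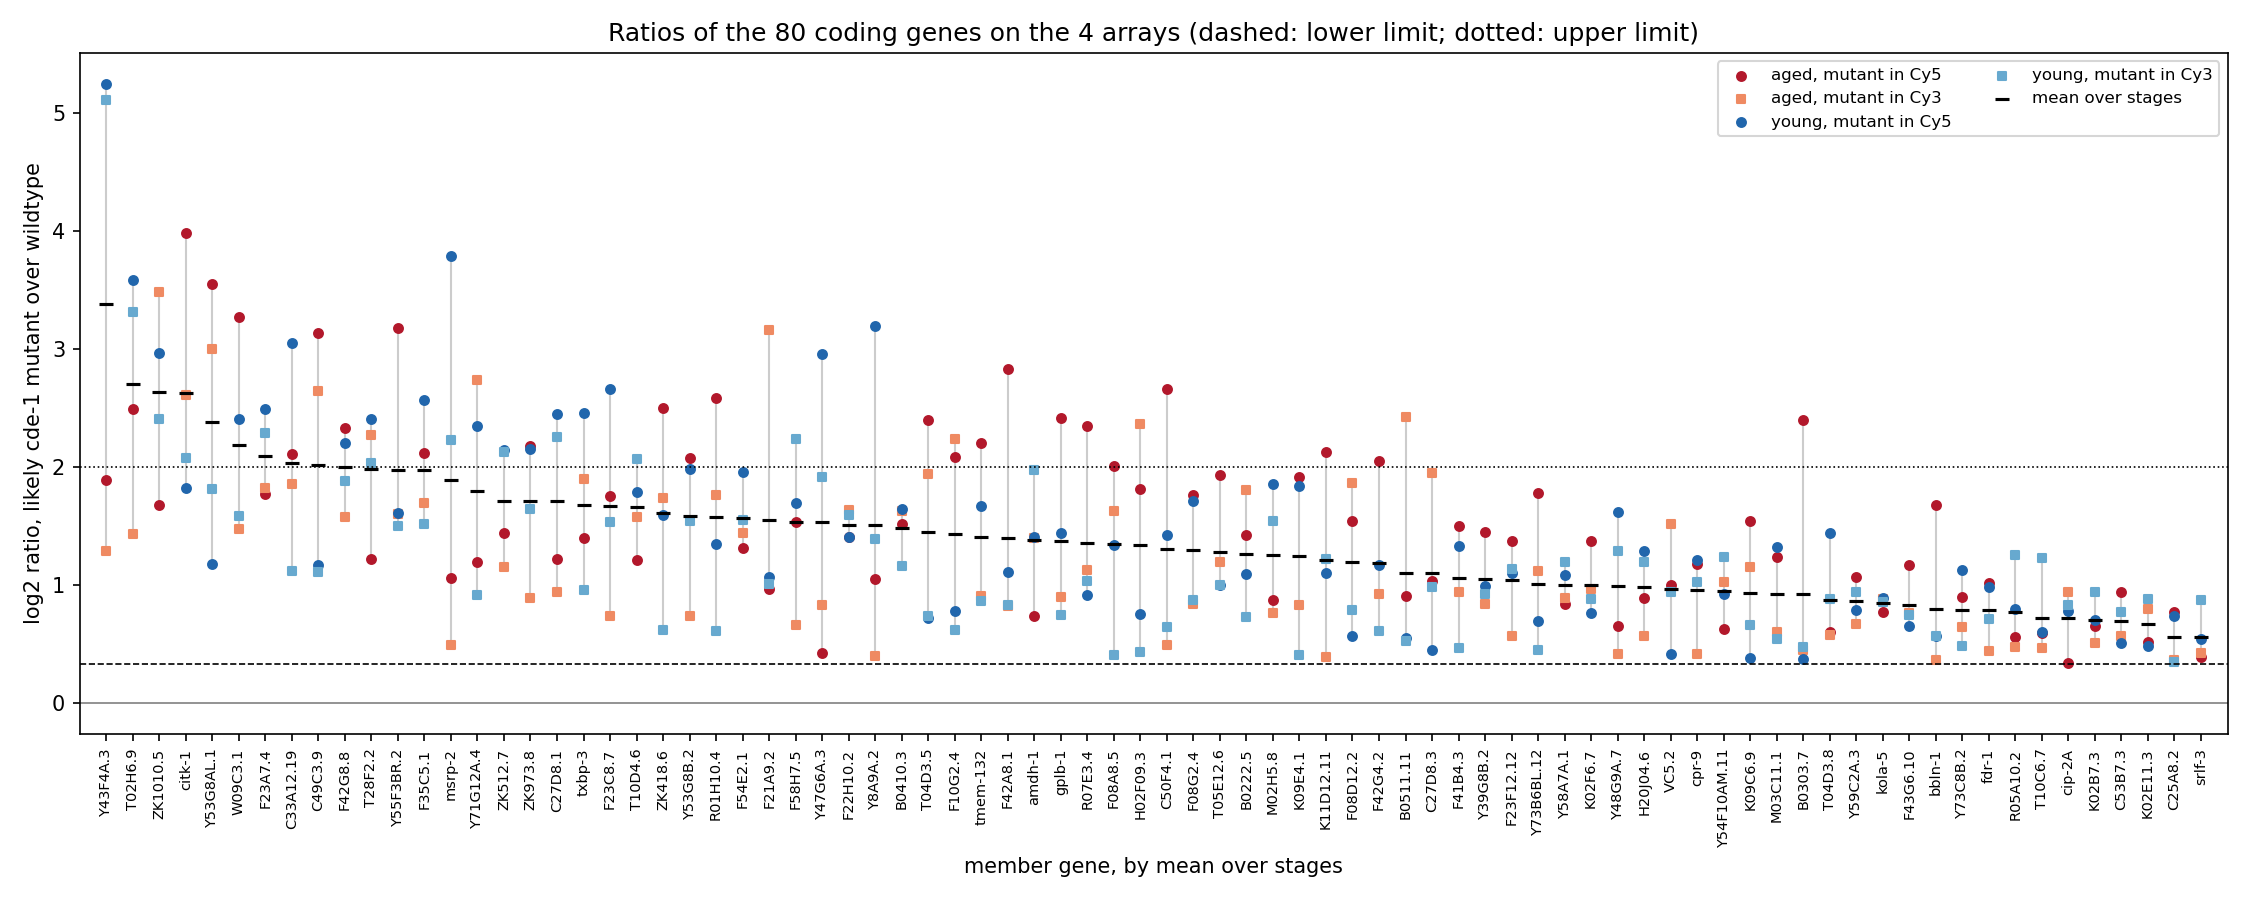
Log2 ratios of the 80 genes (vertical axis, likely mutant over wildtype) on each of the 4 arrays, with genes ordered along the horizontal axis by their mean over stages. Circles have the mutant in Cy5 and squares in Cy3, red and orange marks are aged and blue marks young adults, black dashes are means, and grey lines join the lowest and highest array; all marks lie above the lower limit (dashed, 0.33), and the means run from 3.39 for Y43F4A.3 to 0.56 for srlf-3.

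The 80 genes had a median log2 ratio of 1.32, a 2.50-fold ratio, from the mean of the 2 stage means. The lowest mean was 0.56 and the highest 3.39. By stage their medians were 1.39 in aged and 1.11 in young adults. Over all 2147 coding genes the medians were 0.19 in aged and 0.025 in young adults. A mean above 1 was found for 56 of the 80 genes and above 2 for 9, beside 118 and 18 of all 2147 coding genes. On all 4 arrays at once, 18 of the 80 exceeded 1, beside 25 of all coding genes. The counts over all coding genes include the 80. Since the rule used these ratios, nothing is read from the counts.

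The passing share was 4.38% of the 2147 coding genes with a ratio on all 4 arrays, out of 6927 coding genes with a named probe. The mirror condition, below -0.1 on all 4 arrays in deposited units, was met by 26 genes or 1.21% of the 2147. Since the choice used these ratios, nothing is read from either share. In the following shares the genes were chosen on 1 stage and read on the other. Of 505 coding genes above the lower limit on both young arrays, 94 or 18.6% were also above it on both aged arrays, beside 22.7% of all coding genes. Of 487 genes above the limit on both aged arrays, 19.3% were above it on both young arrays, beside 23.5% of all coding genes. Ratios below the negative limit on both aged arrays were found in 22.6% of the 505, beside 12.8% of all coding genes, and on both young arrays in 39.4% of the 487, beside 21.7%. The first pair of shares lay below, and the second above, those of all coding genes. These differences were not tested. Over the 2147 coding genes, the Pearson correlation between an aged and a young array ran from -0.19 to -0.031.

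**Figure D2:**
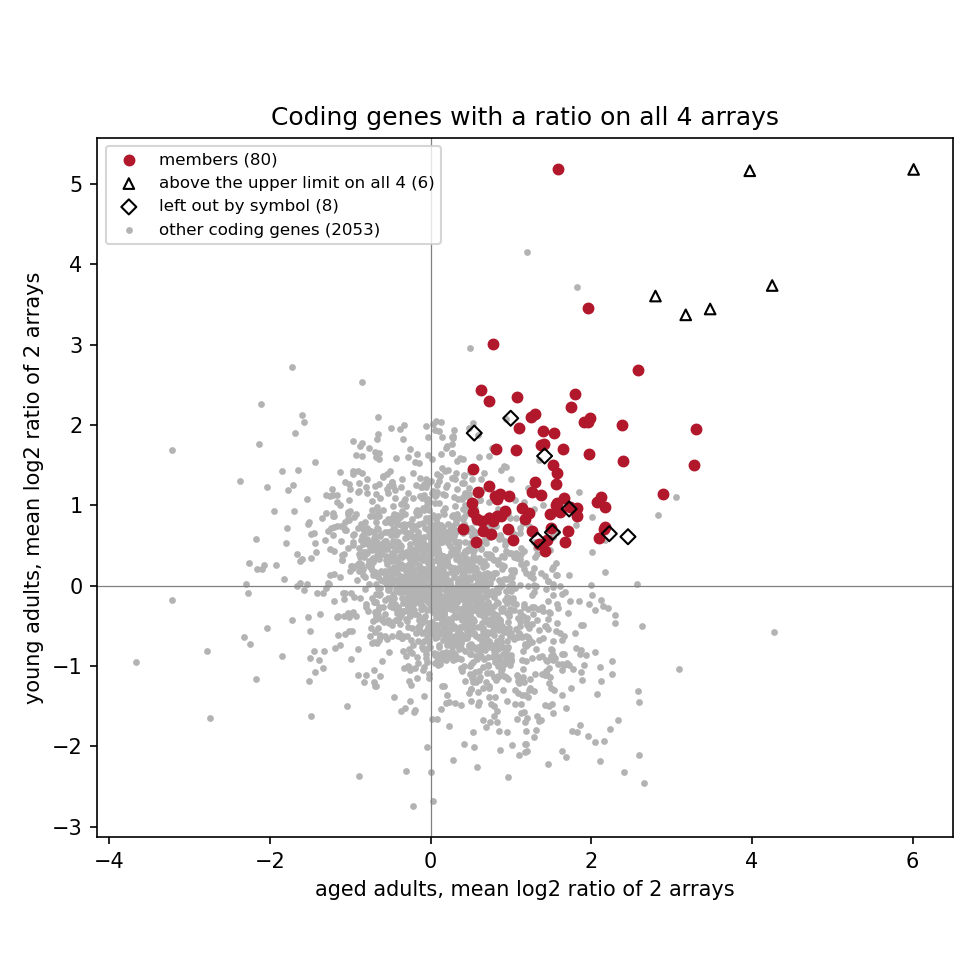
Mean log2 ratio of the 2 aged adult arrays (horizontal axis) against that of the 2 young adult arrays (vertical axis) for the 2147 coding genes with 4 ratios. The 80 genes (red) fill the upper right, at medians of 1.39 and 1.11, apart from the 6 genes above 4-fold on all arrays (triangles) and among the 8 left out by symbol (diamonds).

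The arrays differed in spread, which bears on what the limit of 0.33 means on each. Nonzero log2 ratios of all probes, with or without a gene name, had an SD of 1.40 and 0.86 on the aged arrays and 0.92 and 0.97 on the young arrays. Repeated probes of genes carrying 10 probes differed by a pooled SD of 0.91 and 0.52 log2 units on the aged arrays and 0.26 and 0.50 on the young arrays. The lower limit was thus smaller than the probe SD on 3 of the 4 arrays. The share of coding genes above the limit was 51.4% and 31.2% on the aged arrays and 41.0% and 31.0% on the young arrays. The aged Cy5 array gave 35 of the 80 genes their highest value, and the aged Cy3 array gave 29 their lowest. The same counts over all coding genes are not given here, so nothing about the 80 is read from them. The aged Cy3 array also kept the most genes out. Of 242 coding genes above the limit on 3 of the 4 arrays, 128 missed it there, 78 of them with a negative ratio.

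Only 12 of the 80 genes (15%) had a gene class symbol; the other 68 carried a sequence name alone, and no function is attached to those here. The rule itself removed 8 passing genes by their class symbols, so this share is not compared with that of other genes. The functions that can be named are those of single genes rather than of a pathway.

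The largest ratio among the genes with a symbol belonged to citk-1, which encodes a homologue of citron kinase, which acts at the cleavage furrow in dividing animal cells. Its log2 ratios were 3.99 and 2.61 in aged gonads, against 1.82 and 2.08 in young gonads, a mean of 2.63 ± 0.95 (SD between stages, n = 2). Both aged values lay above both young ones. Under centring with scaling citk-1 left the group by passing the upper limit on all 4 arrays. The other citron kinase gene on the array, citk-2, had 1.34 and 0.64 in aged gonads, against -0.30 and -0.94 in young gonads. The genes thus both had positive aged ratios, whereas in young adults only citk-1 did.

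Signalling molecules and scaffolds can be described next. Thyrostimulin is a glycoprotein hormone made of an alpha and a beta subunit, and gplb-1 encodes the worm's beta subunit. It had ratios of 2.42 and 0.90 in aged gonads, against 1.44 and 0.75 in young gonads, with a mean of 1.38 ± 0.40 (SD, n = 2 stages). In both stages the Cy5 array gave the higher value, by 1.52 in aged and 0.69 in young adults. The gene txbp-3 is named after human TAX1BP3, a small protein made up of little more than one PDZ domain, a module that binds the tails of other proteins. Its ratios were 1.40 and 1.90 in aged gonads, against 2.46 and 0.96 in young gonads, so that the stage means of 1.65 and 1.71 were close while the young arrays lay 1.5 apart. TMEM132 proteins span the membrane once and are best known from neurons. The worm member, tmem-132, had 2.20 and 0.91 in aged gonads, against 1.67 and 0.87 in young gonads. Of 3 other tmem genes with 4 ratios, none passed the limit on all arrays, and their means were 0.37 for tmem-189, 0.32 for tmem-258 and -0.18 for tmem-131. The shared stem stands for a membrane protein and not for a family of related sequence.

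Enzymes and a cytoskeletal protein followed. The gene amdh-1 encodes a protein of the amidohydrolase family, hydrolytic enzymes that often hold metal ions in the active site. It had 0.74 and 1.40 in aged gonads, against 1.41 and 1.97 in young gonads, and both young values exceeded both aged ones, by a small margin. The cysteine protease gene cpr-9, of the cathepsin B family whose members degrade proteins in lysosomes and in the gut, had 1.18 and 0.42 in aged gonads, against 1.21 and 1.03 in young gonads. For bbln-1, which encodes a small coiled-coil protein that keeps the intermediate filament network of intestinal cells in order, the ratios were 1.68 and 0.37 in aged gonads, against 0.57 and 0.57 in young gonads. The mean of bbln-1 was 0.80, and 0.47 without the aged Cy5 array. None of the listed intestinal markers had a named probe, and a part of intestinal tissue in these ratios was not tested.

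The remaining genes with a symbol have no role stated here. Ratios for msrp-2 were 1.06 and 0.49 in aged gonads, against 3.79 and 2.23 in young gonads, one of the widest stage differences in the group, at -2.23 aged minus young. The only other msrp gene with 4 ratios, msrp-7, had stage means of -0.33 in aged and 0.70 in young adults. At the other extreme, kola-5 had 0.77 and 0.88 in aged gonads, against 0.89 and 0.86 in young gonads, the smallest range of all 80 genes at 0.11. The gene fdr-1 had 1.02 and 0.44 in aged gonads, against 0.98 and 0.71 in young gonads. Values for cip-2A were 0.34 and 0.94 in aged gonads, against 0.78 and 0.83 in young gonads, the first of them just inside the limit. After centring, centring with scaling or quantile normalization, cip-2A no longer passed. The lowest mean was shared by C25A8.2 and srlf-3, which had 0.39 and 0.42 in aged gonads, against 0.54 and 0.87 in young gonads. It too was lost under all 3 of these scalings. Of the 7 srlf genes with 4 ratios, only srlf-3 was above the limit on all arrays; the means of the 7 ran from -1.64 to 0.56 with a median of 0.22.

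**Figure D3:**
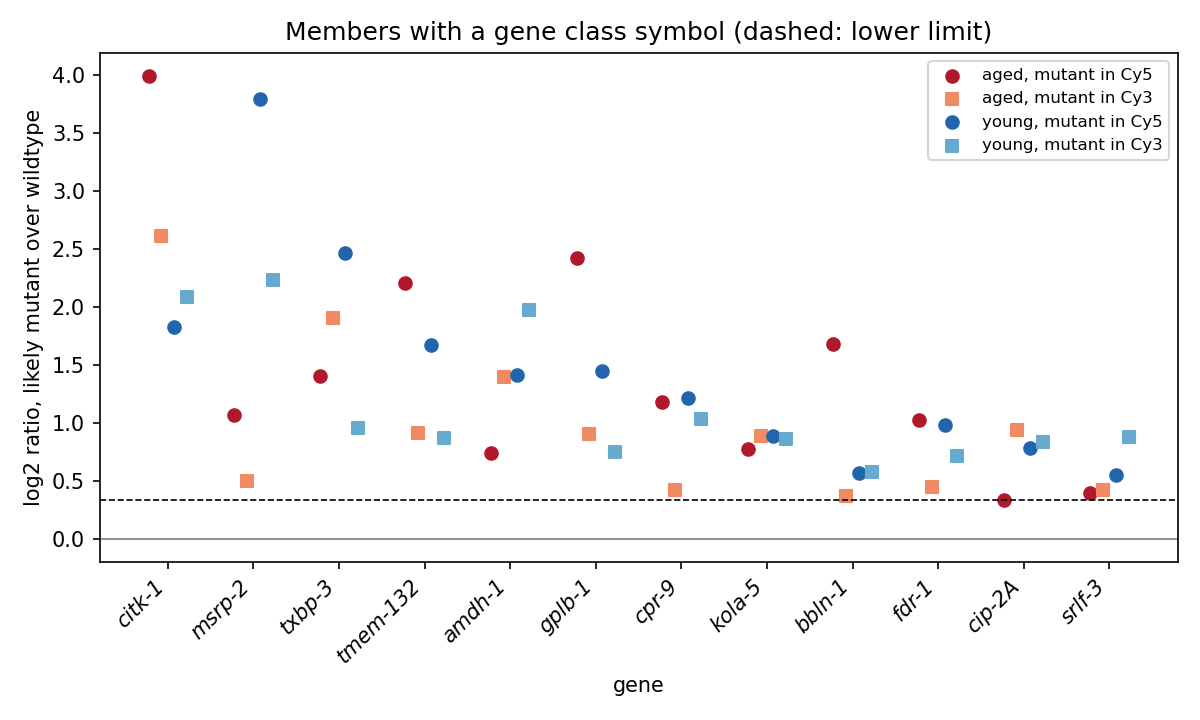
Log2 ratios (vertical axis, likely mutant over wildtype) of the 12 genes with a gene class symbol on the 4 arrays; circles have the mutant in Cy5, squares in Cy3, red and orange are aged and blue young adults, and the dashed line is the lower limit of 0.33. Values for kola-5 lie within 0.11 of each other, whereas msrp-2 spans 0.49 to 3.79 and citk-1 spans 1.82 to 3.99.

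Lists of gene classes gave little further to describe. Of 12 lists defined by symbol stem, 8 had any coding gene with 4 ratios, 33 genes in all. Above the limit on all 4 arrays were 2 of the 33, cpr-9 from the proteases and srlf-3, which had been placed with the chemoreceptor stems, a small number to set beside 4.38% of all coding genes. The RNA processing list, with 11 measured genes and a median mean of -0.014, and the mitochondrial list, with 6 genes and a median of 0.038, had no gene above it. Neither did the 2 nuclear pore and chromatin genes, the 3 kinase and phosphatase genes, the 2 ubiquitin ligase genes or the 1 transporter gene. The lists of nuclear hormone receptors, C-type lectins and collagens had no gene with a named probe, so they could not be read. The detoxification list had 2 genes with a named probe and no coding gene with 4 ratios.

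Among genes known only by a sequence name, Y43F4A.3 on chromosome III had the highest mean of the 80, at 3.39 ± 2.54 (SD, n = 2 stages), a 10.5-fold ratio. It had 1.89 and 1.29 in aged gonads, against 5.25 and 5.12 in young gonads. Both stages were high, but the young ratio was 3.59 log2 units above the aged one, and the fold therefore belongs to neither stage. T02H6.9 on chromosome II showed the same order, with 2.49 and 1.44 in aged gonads, against 3.59 and 3.32 in young gonads. Its mean was 2.71 ± 1.05. ZK1010.5 on chromosome III had 1.68 and 3.49 in aged gonads, against 2.97 and 2.41 in young gonads. Here the stage means of 2.58 and 2.69 nearly coincided, while the aged arrays differed by 1.81 with the dye orientation.

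Y53G8AL.1 and C49C3.9 were higher in aged adults. The first, on chromosome III, had 3.55 and 3.0 in aged gonads, against 1.18 and 1.82 in young gonads. The second, on chromosome IV, had 3.14 and 2.65 in aged gonads, against 1.17 and 1.11 in young gonads. In neither did the stages overlap. W09C3.1, on chromosome I, had 3.28 and 1.48 in aged gonads, against 2.41 and 1.58 in young gonads, so that in both stages the Cy5 array was the higher. F23A7.4, the highest X-linked gene, had 1.77 and 1.82 in aged gonads, against 2.49 and 2.29 in young gonads, with a mean of 2.09 ± 0.42. C33A12.19 had 2.11 and 1.86 in aged gonads, against 3.05 and 1.12 in young gonads. Its young arrays lay 1.94 apart, the widest gap between young orientations in the group. F42G8.8, also on chromosome IV, had 2.34 and 1.57 in aged gonads, against 2.20 and 1.88 in young gonads, for stage means of 1.95 and 2.04. Besides these 10 highest genes, citk-1 included, T28F2.2, F35C5.1, Y55F3BR.2, ZK512.7, T10D4.6, F54E2.1, F22H10.2 and B0410.3 completed the 18 genes above 1 on every array.

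Aged and young ratios lay apart in some of the 80 genes and overlapped in others. Both aged arrays lay above both young arrays in 20 of the 80 genes (25%), beside 33.3% of all coding genes, and both young arrays above both aged arrays in 21 (26.25%), beside 27.4%. The arrays of the stages overlapped in the other 39 (48.75%), beside 39.3% of all coding genes. After quantile normalization the genes with aged arrays above young ones numbered 13, and those with young arrays above aged ones 31. Aged minus young differences had a median of 0.0066 over the 80 genes and ran from -3.59 to 1.78. In 38 genes (47.5%) the stage means differed by under 0.5 log2 units, beside 32.5% of all coding genes, and in 17 (21.25%) by over 1, beside 41.8%. Since the rule asks for a high ratio in both stages, it bears on these shares, and nothing is read from them. With 1 RNA sample of each genotype in a stage, a difference with age and a difference between single samples cannot be told apart.

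Among the genes higher in aged adults, the widest differences after Y53G8AL.1 (1.78) and C49C3.9 (1.75) were those of H02F09.3, F10G2.4 and T04D3.5. H02F09.3 on the X chromosome had 1.82 and 2.37 in aged gonads, against 0.75 and 0.44 in young gonads. F10G2.4 on chromosome V had 2.09 and 2.24 in aged gonads, against 0.78 and 0.62 in young gonads. T04D3.5 on chromosome I had 2.40 and 1.94 in aged gonads, against 0.72 and 0.73 in young gonads. In each of these the stage means lay more than 1.4 log2 units apart while the arrays of a stage lay within 0.6 of each other.

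On the side of young adults, Y43F4A.3 and msrp-2 were followed by Y47G6A.3, Y8A9A.2 and T02H6.9. Y47G6A.3 on chromosome I had 0.43 and 0.83 in aged gonads, against 2.96 and 1.92 in young gonads. Y8A9A.2 on chromosome II had 1.05 and 0.40 in aged gonads, against 3.20 and 1.39 in young gonads. In both genes the lower aged array stood near the limit, and Y47G6A.3 no longer passed under any of the 3 scalings. The orientations of these genes disagreed by 1.04 and 1.81 in young adults, while both young arrays of each gene lay above both aged ones.

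The genes that varied least across the 4 arrays had ratios of moderate size. F22H10.2 on the X chromosome had 1.41 and 1.63 in aged gonads, against 1.41 and 1.59 in young gonads, a mean of 1.51 ± 0.016 (SD, n = 2 stages). Each of its stages repeated the other, and in both the Cy3 array was higher by about the same amount, 0.22 in aged and 0.18 in young adults. Y58A7A.1 had 0.84 and 0.89 in aged gonads, against 1.08 and 1.19 in young gonads. K02E11.3 had 0.51 and 0.79 in aged gonads, against 0.48 and 0.88 in young gonads. The arrays split here by dye orientation and not by stage, and K02E11.3 no longer passed after scaling or quantile normalization. Y59C2A.3 had 1.07 and 0.67 in aged gonads, against 0.79 and 0.94 in young gonads, with stage means that differed by 0.0050. C25A8.2 had 0.77 and 0.37 in aged gonads, against 0.74 and 0.35 in young gonads, again a split by orientation, with the mutant in Cy5 higher. Together with kola-5 these had ranges from 0.11 to 0.42, where the median range was 1.26 over the 80 genes and 1.62 over all coding genes.

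**Figure D4:**
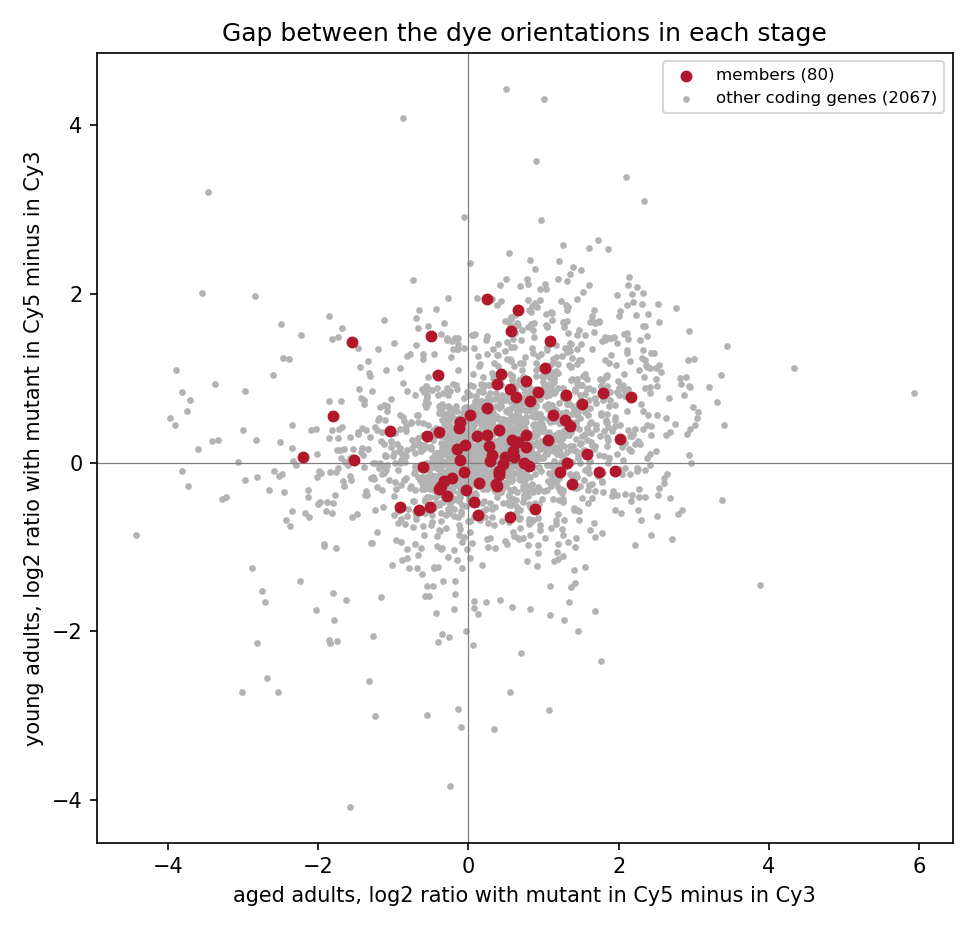
Log2 ratio with the mutant in Cy5 minus that with the mutant in Cy3, in aged adults (horizontal axis) and young adults (vertical axis), for the 80 genes (red) and the other 2067 coding genes with 4 ratios (grey). Most red points lie to the right of 0, at medians of 0.40 in aged and 0.19 in young adults, as do the grey ones.

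Values of the 80 genes differed between the dye orientations, mostly with a higher ratio on the Cy5 array, as over all coding genes. Each orientation of a stage was 1 array, so dye and array cannot be told apart. The medians of all coding genes were 0.37 and -0.0042 on the aged arrays and 0.13 and -0.095 on the young arrays. The ratio with the mutant in Cy5 was higher than that with the mutant in Cy3 in 55 of the 80 genes in aged adults (68.75%, beside 65.7% of all coding genes) and in 51 in young adults (63.75%, beside 64.6%). The median gap was 0.40 in aged and 0.19 in young adults over the 80 genes, and 0.35 and 0.20 over all coding genes. In both stages the Cy5 orientation was higher in 37 genes (46.25%, beside 47.4% of all coding genes) and the Cy3 orientation in 11 (13.75%, beside 16.9%). A gap over 1 log2 unit was found in 22 genes in aged adults (27.5%, beside 34.6% of all coding genes) and in 9 in young adults (11.25%, beside 18.1%). Both gaps were under 0.5 in 28 genes (35.0%), beside 27.7% of all coding genes.

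A single array carried much of the mean in a few genes. B0303.7 had 2.40 and 0.45 in aged gonads, against 0.38 and 0.48 in young gonads. Its mean of 0.93 was 0.44 without the aged Cy5 array, and 1.41 without the other aged array. Other genes besides bbln-1 also moved by over 1.5 times without 1 aged array. Without the aged Cy5 array, C50F4.1 had a mean of 0.76 in place of 1.31, F42A8.1 of 0.90 in place of 1.40 and K11D12.11 of 0.78 in place of 1.21. Without the aged Cy3 array, F21A9.2 had 1.0 in place of 1.55 and B0511.11 had 0.72 in place of 1.10. The mean of the other arrays could not fall below 0.33 in any of them, since the rule asks for more than that on each array.

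The members nearest to the lower limit were cip-2A, C25A8.2, bbln-1, B0303.7 and K09C6.9, whose lowest arrays lay at 0.34, 0.35, 0.37, 0.38 and 0.39. K09C6.9 had 1.54 and 1.16 in aged gonads, against 0.39 and 0.66 in young gonads. It was lost after centring, as was B0303.7. Just outside were F54D10.7 and R09H10.7, both with a lowest array at 0.33, F35E12.10 and K02F3.9 at 0.31, and C05D2.8 at 0.31. K02F3.9 missed the limit on the aged Cy3 array, with 1.52 and 0.31 in aged gonads, against 1.62 and 1.37 in young gonads. At the upper limit, the members with the highest lowest arrays were citk-1 at 1.82, F23A7.4 at 1.77 and ZK1010.5 at 1.68. Beyond it stood F15D4.5, ZK1248.4 and F07B7.2, with lowest arrays at 2.33, 2.43 and 2.64.

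The 80 genes were spread over all 6 chromosomes. They made up 2.98% of the 403 coding genes with 4 ratios on chromosome I, 4.44% of 383 on II, 3.94% of 381 on III, 3.55% of 366 on IV, 3.92% of 383 on V and 3.46% of 231 on X. Their number was highest on chromosome II, with 17 genes, and lowest on X, with 8. Median ratios by chromosome ran from 1.10 on IV to 1.61 on I.

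Few of them were close to each other along the chromosomes. By the gene order of the WBcel235 annotation, 3 pairs had at most 5 coding genes between them. T04D3.8 and T04D3.5 on chromosome I had 2 genes between them and opposite stage orders, with aged and young means of 0.59 and 1.16 for the first and of 2.17 and 0.73 for the second. C27D8.3 and C27D8.1 on chromosome IV had 1 gene between them, and here too the first was higher in aged adults (1.49, against 0.71 in young adults) and the second in young adults (1.08 in aged, against 2.35 in young adults). F41B4.3 and C53B7.3 on the X chromosome, with 2 genes between them, had means of 1.22 and 0.75 in aged gonads, against 0.90 and 0.64 in young gonads. None of the genes in between had 4 ratios.

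Of the genes directly next to the 80, leaving out those that are themselves among the 80, 22 had 4 ratios. Their median log2 ratio was 0.23, with quartiles of -0.088 and 0.56, and that of all other coding genes was 0.064, with quartiles of -0.18 and 0.35. None of the 22 was above the limit on all 4 arrays. With the 80 left out, only 14 coding genes were above it, so this absence was close to fixed and nothing is read from it. Positive on all 4 arrays were 2 of the 22 (9.09%), beside 7.74% of all other coding genes. The highest neighbour was R05A10.3, next to R05A10.2, with 2.20 and 0.89 in aged gonads, against 1.85 and 0.17 in young gonads. W02B8.1, next to citk-1, had 1.94 and -0.17 in aged gonads, against 0.88 and -0.46 in young gonads. Of the 22 neighbours, 19 had ratios of both signs over the 4 arrays.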

How the data were processed

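The deposited table holds 1 value per probe and array, which was read as a log10 ratio that the authors obtained with Agilent Feature Extraction, per the submitters' processing notes, which give no version. For dye normalization, background correction and direction the method was not given in the sources used here. Ratios of exactly 0 (43.7% to 52.2% of an array) were taken as missing, and the others were multiplied by 3.32 to give log2 ratios. Of 22562 probes, 7718 had 1 gene symbol and 14844 were unnamed; 7691 of the named probes matched the WBcel235 gene table, which supplied symbols, biotypes, chromosomes and gene order. A gene's value on an array was the mean of its probes. The members, lists and limits were chosen with earlier results of these data known, and no test was run on ratios that the rule had used. Genes were named by rule: the 10 highest means, the 6 smallest ranges, the 5 widest stage differences each way, the genes nearest the limits and all with a class symbol. Others, such as neighbours and the genes that rest on 1 array, were named after their values were seen. Protein and promoter features were planned but not analysed here, nor were product descriptions. Signal over background was not used here. The rule was tested on simulated data. Python 3.11.15, pandas 2.3.3, numpy 2.4.6 and matplotlib 3.10.9 were used.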

Additional observations from a re-analysis of the deposited data

Results flagged for a closer look

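Probes without a gene name were used in no comparison of genes. They did count in the SD, the median and the share of zeros of each array. Of 6013 such probes with a ratio on all 4 arrays, 189 (3.14%) were above the lower limit on all 4, with a median mean log2 ratio of 1.16 and a highest of 3.81, and 59 were below the negative limit on all 4. They drew attention as a signal in data that the text does not report on.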

How the results depend on the processing

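The number of genes moved with the limit: it was 141 at a lower limit of 0.05 on the log10 scale and 40 at 0.2. The 40 were all among the 80, as a stricter limit requires. Rules on 3 arrays gave 114 to 201 genes; 201 were found without the aged array and 177 without the young array that had the mutant in Cy3. The young arrays alone gave 517 genes and the aged arrays alone 592, both added after seeing the data. Unlike the 505 and 487 genes above, these needed no ratio in the other stage, and the upper limit and symbol rule were applied. The rules on 3 arrays likewise needed no ratio on the array left out. With the arrays that had the mutant in Cy3 turned, as if the deposit held untouched Cy5 over Cy3 ratios, 41 genes passed, 0 of them among the 80, by construction. Centring gave 77 genes, 75 of them shared, scaling 83 (72 shared) and quantile normalization 97 (70 shared). All 80 stayed positive on all 4 arrays under these 3. For centring and scaling this was fixed, as the largest array median was 0.16 log2 units, below the lower limit of 0.33. Keeping zeros and requiring every probe to pass each gave the same 80 genes. Each of the 80 had 1 probe with a nonzero ratio on every array, so neither setting could remove any of them. The median ratio of 1.32 ran from 1.19 to 1.44 over its alternatives. Genes with aged arrays above young ones numbered 13 after quantile normalization in place of 20, and those with young arrays above aged ones 31 in place of 21; the cause was not tested. The mean was recomputed under 8 settings for the 33 genes that the naming rule picks, and not for the other genes named, which gave 264 values: 209 moved by less than the SD between stages, 55 by more and 0 reversed. Leaving out an array or taking the median of the 4 could not reverse a sign, since the rule asks for a positive ratio on each array. The SD between stages is a stage difference and not a measurement error, so genes with a wide stage difference stay within it easily. No paired test was run, since the ratios themselves chose the genes. The labels number no replicates, and the arrays of a stage are set side by side by dye orientation. Signal over background was not used, so it is unknown which ratios are dim.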
